A study of Mus musculus with 8 samples.

Results

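The TRP cation channel genes examined here were Trpc1, Trpc4, Trpc5, Trpc6, Trpc7, Trpm2, Trpm3, Trpm4 and Trpm7, matched by gene symbol in the deposited table. All 9 had a row among the 14353 genes listed, and all 9 were among the 14249 genes tested. Trpc6 and Trpm4 passed the filter on low values (over 1 CPM, reads scaled to library size, in at least 3 libraries) through the INPUT fraction: 2 of 4 and 1 of 4 of their TRAP libraries were over 1 CPM.

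RNA came from the ventral pallidum (VP) of untreated VGluT2-Cre x Rpl22 mice, homozygous for VGluT2-Cre and heterozygous for the RiboTag allele of Rpl22. In these mice Cre, expressed from the vGluT2 (Slc17a6) locus, puts an HA tag on the ribosomal protein RPL22, so that translating ribosome affinity purification (TRAP) with an anti-HA antibody pulls down RNA from cells that express vGluT2 or did so earlier in development. Both fractions carried the same alleles, and no library came from mice without Cre. The TRAP fraction is therefore meant to be enriched in RNA of glutamatergic VP neurons (VPGlu neurons). INPUT stands for the whole VP homogenate, neurons and glia together. TRAP was not free of other RNA. Slc17a6 held 143 CPM in TRAP and 25.9 CPM in INPUT, but the GABAergic gene Gad1 held 613 and 516 CPM. Of 7 GABAergic and cholinergic markers, 3 were called lower in TRAP. Tissue of 38 mice was combined into 4 pools, each of 7 to 11 males and females, and every pool was split into a TRAP library and an INPUT library. Mice of pool VP1.6 were 9 to 12 weeks old, and those of the other 3 pools, VP2.2, VP2.6 and also VP2.11, were 10 to 16 weeks old. The pool is the replicate, so errors below are spreads over 4 pools.

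TRP channels are cation channels of the plasma membrane built from 4 subunits. TRPC channels open downstream of Gq-coupled receptors and phospholipase C and carry calcium and sodium into neurons. Trpc1 is mostly a partner subunit, Trpc4 and Trpc5 form channels with each other and with Trpc1, and Trpc6 and Trpc7 are opened by diacylglycerol. The TRPM members differ more among themselves. Trpm2 is opened by ADP-ribose and oxidative stress, Trpm3 by heat and neurosteroids, and Trpm4 by internal calcium, while Trpm7 is a channel for magnesium, zinc and calcium with a kinase domain at its end. Trpm4 passes sodium and potassium but hardly any calcium, and in neurons it is known for depolarizing plateau and burst firing.

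A short stretch after the last membrane segment, the TRP box, marks these genes as one family, and its coding sequence is shown because it is what the 9 members share and where the TRPC and TRPM groups part. Each was found once in the longest open reading frame of a GENCODE transcript of build GRCm38. Capitals mark the tryptophan and lysine codons and the closing arginine codon.
Trpc1: gaaTGGAAGtttgctCGA
Trpc4: gaaTGGAAAtttgctCGA
Trpc5: gagTGGAAGtttgcgAGA
Trpc6: gagTGGAAGtttgcaAGG
Trpc7: gagTGGAAAtttgctCGA
Trpm2: atcTGGAAAttccagCGC
Trpm3: gtaTGGAAAtttcagAGG
Trpm4: tacTGGAAGgcacagCGC
Trpm7: gtaTGGAAGtatcagCGG
The 5 TRPC sequences differed by synonymous codons alone, whereas the 4 TRPM sequences also differed in the residues they encode. None of this likeness reaches read length: of all 75-base stretches of their transcripts, Trpc1, Trpc4, Trpc5, Trpc7, Trpm4 and Trpm7 shared 0 with any other gene, so reads of one member could not be taken for another. Trpc6 shared 2.8%, Trpm2 0.502% and Trpm3 1.63% of stretches with genes outside the family. The Trpm3 stretches lay in Gm27151 and C330002G04Rik on the other strand, and since no source used here says that counting used strand, reads from those overlaps cannot be told apart.

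Relative to INPUT, the TRAP fraction held much less Trpm4 mRNA, the 1 difference among the 9 genes that was called both with and without the pool as a block. Trpc5, Trpm7 and Trpc4 had higher means in TRAP but were called only without the block. Trpm4 was 8.91-fold lower in TRAP (95% interval 3.87 to 20.5, with the pool as a block). That size rests on TRAP values near the floor, as only 1 of 4 TRAP libraries was over 1 CPM. Trpm4 also passed the filter on low values through INPUT, so its call is not independent of that filter. With a pseudocount of 1 CPM the log2 fold change was -2.17 in place of -3.16, and was still called in both fits. For Trpc5, Trpm7 and Trpc4 the ratio of TRAP to INPUT was 1.87, 1.72 and 1.46. With the fraction as the only term in limma, 3 of the 9 genes were called higher and 1 lower at an adjusted p under 0.05, where 23.2% of all genes tested were called higher and 24.8% lower. With the pool as a block, 0 were called higher and 1, Trpm4, lower, where 15.4% of all genes were called higher and 16.8% lower. Without the block 4 of the 9 genes were thus called, where 47.9% of all genes were, so the number called was near the background. Their median log2 fold change was 0.30, beside -0.05 over all genes tested.

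The fit with the block is given beside each call because both libraries of a pool came from 1 homogenate, and because of how the deposited levels behave. In pools VP2.2 and VP2.6 the TRAP and INPUT values of a gene differed by exactly a ratio of whole reads, but the level of both was shifted together from the level those reads give, by an SD of 0.37 and 0.30 on the log2 scale over genes. The step that made this shift is not named in the sources used here. It leaves the TRAP minus INPUT difference of a pool untouched, whereas levels in single libraries, and the fit without the block, carry it. Both libraries of a pool also deviated from their fraction means in opposite directions (mean r = -0.661 across genes), so the fit without the block tends to understate the error of the TRAP minus INPUT difference. For Trpm4 alone of the 9 genes the limma SE was smaller with the block, at 0.56 in place of 0.64. Its values did not pair more tightly. The SD of its 4 pool differences was 1.67, beside SDs of 1.57 in TRAP and 0.32 in INPUT (log2). In bulk fractions such as these, fewer cells with a transcript and less transcript per cell cannot be told apart.

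**Figure D1:**
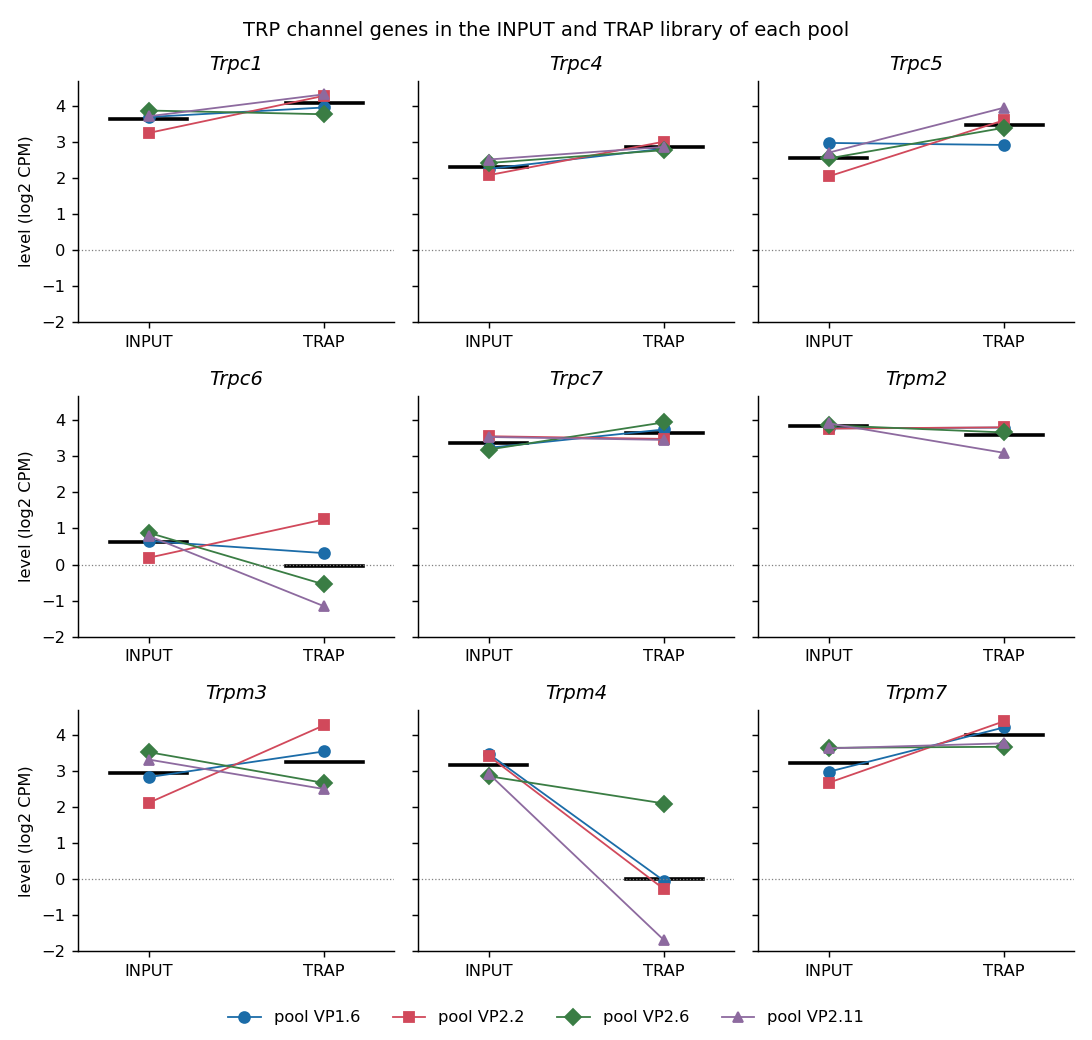
Level (log2 CPM) of each TRP gene in INPUT and TRAP, with a line joining both libraries of a pool and a black bar at the mean of 4 libraries. Trpm4 falls in all 4 pools, far less in VP2.6 than in the others, and the lines of Trpm3 and Trpc6 cross.

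Among the TRPC genes, Trpc5 (ENSMUSG00000041710, chrX:144381671-144688180, minus strand, GRCm38) differed most. It stood at 7.54, 12.1, 10.5 and 15.5 CPM in TRAP, in the order VP1.6, VP2.2, VP2.6, then VP2.11 that is kept throughout, and at 7.84, 4.11, 5.81 and 6.50 CPM in INPUT. TRAP was higher in 3 of 4 pools, and in VP1.6 both libraries were level, so the groups overlapped. The log2 fold change was 0.90 ± 0.27 (SE; limma adjusted p = 0.018), and with the block 0.90 ± 0.34 (adjusted p = 0.053, 95% interval 0.18 to 1.62). The exact permutation test of 4 against 4 libraries gave p = 0.0571, two-sided. This test, here and for the genes below, regroups all 8 libraries freely and so ignores their pairing by pool. Its p-values describe how far the libraries separated and do not test the paired difference. Without VP1.6 the difference was 1.22 and was called also with the block (adjusted p = 0.033), and without VP2.2 it was 0.68 and was called in neither fit (0.091 and 0.17).

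Trpc4 (ENSMUSG00000027748, chr3:54156035-54318471, plus strand) moved least from pool to pool. Its TRAP libraries held 7.02, 8.04, 6.82 and 7.26 CPM and its INPUT libraries 4.76, 4.21, 5.33 and 5.70 CPM. All 4 TRAP values lay above all 4 INPUT values (exact p = 0.0286, the smallest that 4 against 4 can give), a pattern that 23.3% of all genes tested also had. The 4 pool differences had an SD of 0.27, beside a median SD of 0.57 over all genes. The log2 fold change of 0.55 ± 0.19 (limma adjusted p = 0.031) was not called with the block (SE 0.33, adjusted p = 0.22).

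Trpc1 (ENSMUSG00000032839, chr9:95705082-95750375, minus strand), the partner of both, held 15.5, 19.4, 13.6 and 20.0 CPM in TRAP and 12.9, 9.49, 14.6 and 13.1 CPM in INPUT. In 3 of 4 pools TRAP was the higher, in VP2.6 the lower. The log2 fold change of 0.45 passed neither test (adjusted p = 0.076, and 0.23 with the block), but was called after quantile normalization without the block (0.51, adjusted p = 0.033).

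Trpc7 (ENSMUSG00000021541, chr13:56773113-56895993, minus strand) split the pools evenly. TRAP held 13.5, 11.2, 15.4 and 11.0 CPM and INPUT 9.45, 11.8, 9.13 and 11.6 CPM. VP1.6 and VP2.6 had more in TRAP, by 0.51 and 0.76 on the log2 scale, whereas VP2.2 and VP2.11 were near level at -0.075 and -0.08. The mean difference of 0.28 passed neither test (adjusted p = 0.22, and 0.48 with the block), but with array weights and no block it was 0.50 and was called (adjusted p = 0.010).

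Trpc6 (ENSMUSG00000031997, chr9:8544142-8680741, plus strand), the other diacylglycerol-opened channel here, was scarce in both fractions. TRAP held 1.24, 2.38, 0.681 and 0.448 CPM and INPUT 1.57, 1.14, 1.84 and 1.74 CPM. TRAP was lower in 3 pools and higher in VP2.2. The mean log2 difference of -0.67 passed neither test (adjusted p = 0.31, and 0.49 with the block) and was 0.14 after quantile normalization. In VP2.6 these levels rested on 10 reads in TRAP and 56 in INPUT, a counting SE of 0.48 on the log2 scale.

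Trpm4 (ENSMUSG00000038260, chr7:45302632-45333780, minus strand), the calcium-activated monovalent channel, was the member with the clearest difference. Its TRAP libraries held 0.964, 0.822, 4.28 and 0.308 CPM, and its INPUT libraries 11.2, 10.7, 7.25 and 7.62 CPM. All 4 TRAP libraries lay below all 4 INPUT libraries (exact p = 0.0286), a pattern that 24.4% of all genes tested also had. The log2 fold change was -3.16 ± 0.64 (SE, limma adjusted p = 0.0027), and with the block -3.16 ± 0.56 (adjusted p = 9.31e-04). Without a trend in the eBayes step of limma, the adjusted p with the block was 0.019. Of the 14249 genes tested, 210 had a lower log2 fold change. Trpm4 entered these genes through INPUT, as 1 of 4 TRAP libraries was over 1 CPM. A gene so low in TRAP could be tested only if INPUT held more of it. The exact p, the calls and this rank therefore describe the values and are not independent evidence of a fall.

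The size of the Trpm4 difference was set by pool. INPUT was 11.6, 13.0 and 24.8 times TRAP in VP1.6, VP2.2 and VP2.11, but 1.69 times TRAP in VP2.6. The SD of the 4 log2 differences, 1.67, was at percentile 94.9 of all genes. In VP2.6 the values rested on 44 TRAP and 149 INPUT reads in libraries of 12.8 and 25.4 M reads, a counting SE of 0.25 on the log2 scale. In VP2.2 the ratio could be read as 12 and 492 reads, with a counting SE of 0.41, or as 7 and 295. Leaving out each pool in turn gave -3.96 to -2.66, called every time with and without the block.

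Levels of 8 marker lists stood beside the Trpm4 value of VP2.6 as follows. The summed level of 8 microglial markers in TRAP over INPUT was -2.02 in VP2.6 and -2.50 to -1.17 in the other pools (log2). For 7 choroid plexus and ependymal markers it was -2.0, the least negative of a range down to -2.80, and for 6 vascular markers -0.92, the lowest of a range up to 1.23. The 6 neuronal markers stood at 1.63, inside the range of 0.85 to 2.13. Each of these sums is weighted toward its most abundant genes. In the neuronal sum Snap25 held a mean of 18607 CPM in TRAP, beside 143 CPM for Slc17a6, so it says little of Slc17a6. The striatal (-1.64), oligodendrocyte (-1.60) and GABAergic and cholinergic lists (-0.17) were also inside the range of the other pools, and the astrocyte list, at -1.10, was level with its lowest pool. The part of other cell types in the Trpm4 difference was not tested.

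Trpm7 (ENSMUSG00000027365, chr2:126791565-126876230, minus strand), the channel kinase, held 18.5, 20.9, 12.8 and 13.6 CPM in TRAP and 7.89, 6.38, 12.5 and 12.4 CPM in INPUT. All 4 TRAP values lay above all 4 INPUT values (exact p = 0.0286), a pattern that 23.3% of all genes tested also had. Yet the pools fell into 2 kinds: TRAP was 2.35 and 3.27 times INPUT in VP1.6 and VP2.2, and 1.02 and 1.10 times INPUT in VP2.6 and VP2.11. The log2 fold change of 0.78 ± 0.26 (limma adjusted p = 0.031) was not called with the block (SE 0.32, adjusted p = 0.079, 95% interval 0.09 to 1.47).

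Trpm2 (ENSMUSG00000009292, chr10:77907722-77970563, minus strand), the ADP-ribose-gated channel, was near level in 3 of 4 pools. TRAP held 13.9, 14, 12.7 and 8.57 CPM and INPUT 13.7, 13.7, 14.6 and 15.1 CPM, so only the TRAP library of VP2.11 stood low. The log2 difference of -0.24 passed neither test (adjusted p = 0.31, and 0.53 with the block).

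Trpm3 (ENSMUSG00000052387, chr19:22139046-22995410, plus strand) changed direction between pools. TRAP held 11.7, 19.3, 6.36 and 5.66 CPM and INPUT 7.11, 4.34, 11.5 and 9.99 CPM. The log2 difference was 0.72 and 2.16 in VP1.6 and VP2.2, and -0.86 and -0.82 in VP2.6 and VP2.11, an SD at percentile 92.6 of all genes. The mean of 0.30 passed neither test (adjusted p = 0.58, and 0.63 with the block), was -0.32 without VP2.2 and -0.071 with array weights. At 245 TRAP and 166 INPUT reads in VP2.2, and 132 and 476 in VP2.6, the counting SE was 0.14 in both.

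**Figure D2:**
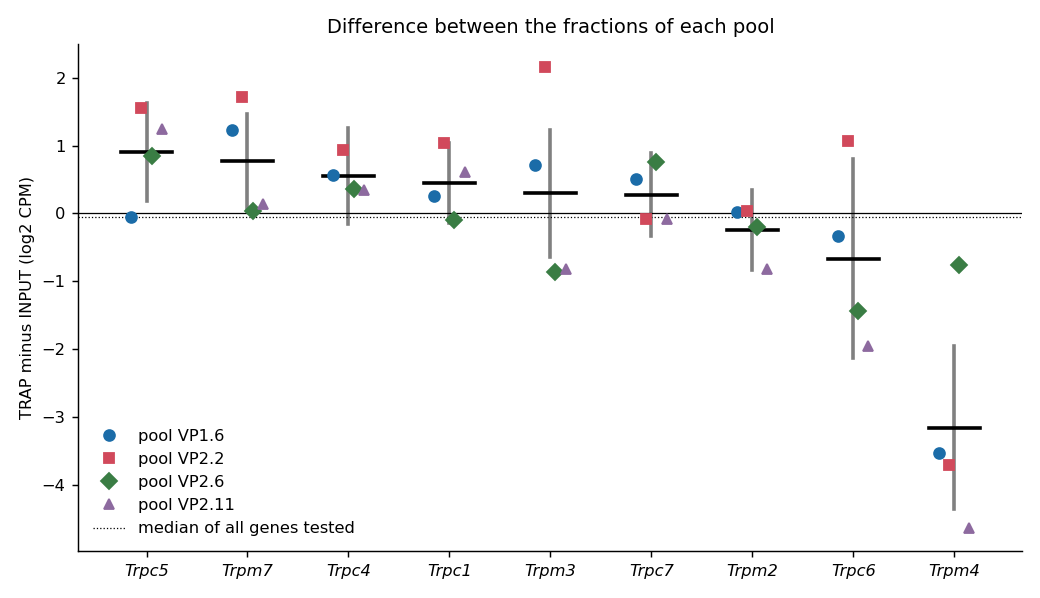
TRAP minus INPUT (log2 CPM) of each TRP gene in each of 4 pools, ordered by the mean (black bar), with the 95% interval from the blocked fit (grey). The interval of Trpm4 runs from -4.36 to -1.95, and pool VP2.2 (squares) is the highest point for 7 of the 9 genes.

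One pool leaned upward across the family. VP2.2 gave the highest of the 4 pool differences for 7 of the 9 genes, Trpc7 and Trpm4 being the exceptions, where it was highest for 32.3% of all genes tested. In this pool alone, 7 markers of GABAergic and cholinergic neurons were summed to more in TRAP than in INPUT (1.13 on the log2 scale, against -0.59 to -0.17 elsewhere). Even so, 3 of these 7 were lower in TRAP in VP2.2. The summed level of 7 astrocyte markers was near that of INPUT in VP2.2 (-0.14, against -1.10 to -0.71 elsewhere), although 6 of the 7 were lower in TRAP there too. Without VP2.2, 0 of the 9 genes were called higher in either fit, where 21.9% of all genes were without the block and 14.9% with it, and Trpm4 was called lower in both. The part of these markers in the TRP values was not tested.

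TRAP minus INPUT also followed gene length. Over the 14249 genes tested, Spearman's rho between exon length and the log2 difference was 0.57 in VP2.2, 0.32 in VP1.6, 0.22 in VP2.6 and 0.21 in VP2.11. This is a correlation across genes of the same 2 libraries, and genes are not replicates. The exon length of the TRP genes ran from 3.88 kb in Trpc7 to 24.4 kb in Trpm3. Trpm3, Trpm7 (11.3 kb) and Trpm2 had their 2 highest differences in VP2.2 and VP1.6, the pools with the highest rho. So did the shorter Trpc4 and Trpc6, whereas Trpm4 (10.8 kb), Trpc1, Trpc5 and Trpc7 did not. The part of length in these differences was not tested.

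The size of the trend did not follow that order of pools. At the length of Trpm3 it came to 1.42 in VP2.2, 0.64 in VP2.11, 0.36 in VP2.6 and 0.34 in VP1.6, and at the length of Trpm7 to 0.85, 0.39, 0.26 and 0.22. With the trend of each pool taken out, the Trpm3 difference still ran from 0.74 in VP2.2 to -1.46 in VP2.11, and its mean turned to -0.39. Trpm7 became 0.35 and Trpc4 0.25, neither called in either fit (adjusted p = 0.23 and 0.25 without the block). Trpc5, one of the shorter members at 5.01 kb, stayed at 0.82 (adjusted p = 0.022, and 0.056 with the block). Trpm2 came out at -0.71 (adjusted p = 0.011, and 0.048 with the block), and at -0.73 with 1 trend taken out over all pools, which was not called with the block (0.065). Trpm4 was -3.57 (adjusted p = 2.92e-04 with the block). The correction was chosen after the pool differences had been seen.

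**Figure D3:**
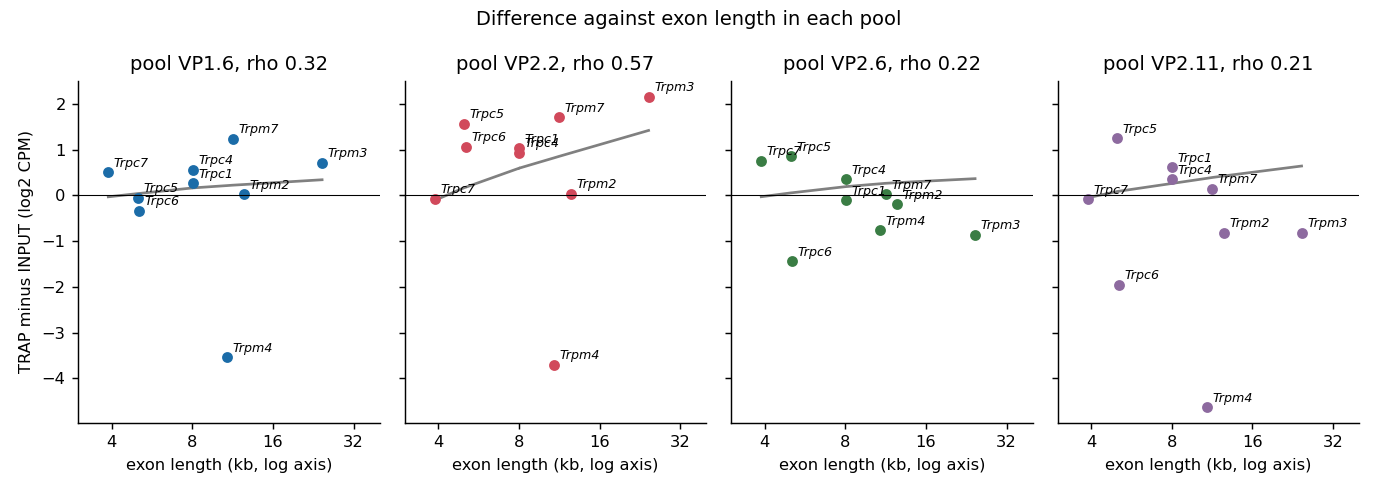
TRAP minus INPUT (log2 CPM) against exon length (kb, log axis) of the 9 TRP genes in each pool, with the trend over all genes read at their lengths (grey line) and Spearman's rho over all genes. The line climbs most in VP2.2, and Trpm4 lies far below it in every pool but VP2.6, where it is 1.01 below.

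Among the 9 genes, Trpc7 had the highest mean level per kb of exon in TRAP and Trpm4 the lowest. In TRAP the order was Trpc7 (3.29 ± 0.54 CPM per kb, SD, n = 4), Trpc5 (2.27 ± 0.66), Trpc1 (2.13 ± 0.38), Trpm7 (1.45 ± 0.34), Trpm2 (0.988 ± 0.21), Trpc4 (0.907 ± 0.066), Trpm3 (0.440 ± 0.26), Trpc6 (0.235 ± 0.17) and Trpm4 (0.147 ± 0.17). Neighbours kept their order in all 4 TRAP libraries for Trpc1 over Trpm7, Trpm7 over Trpm2, Trpc4 over Trpm3 and Trpm3 over Trpc6. The other 4 steps held in 3 of 4 libraries and were all smaller than their spread: Trpc7 over Trpc5 (0.57 ± 0.61, SD, log2), Trpc5 over Trpc1 (0.06 ± 0.32), Trpm2 over Trpc4 (0.10 ± 0.34) and Trpc6 over Trpm4 (1.04 ± 1.81). The first and the last place are thus not set apart from their neighbours. Among all genes tested, these levels reached from percentile 1.6 for Trpm4 to percentile 47.4 for Trpc7, so none of the 9 was above the middle.

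In INPUT, Trpc7 again led, ahead of Trpc1, Trpc5, Trpm2, Trpm4, Trpm7, Trpc4, Trpm3 and Trpc6. Trpm4 stood in place 5 in INPUT and in place 9 in TRAP. Its INPUT place was not settled: it led Trpm7 by 0.0037 ± 0.80 (SD, log2), stood in place 6 without VP1.6 or VP2.2, and in place 3 with the longest transcript as length. Its level per kb ran from 0.669 to 1.03 CPM in INPUT and from 0.0284 to 0.396 CPM in TRAP. With the longest transcript in place of all exons, Trpc1 passed Trpc7 in TRAP by 0.05 ± 0.50 (SD, log2), and Trpc6 and Trpm4 remained in places 8 and 9.

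**Figure D4:**
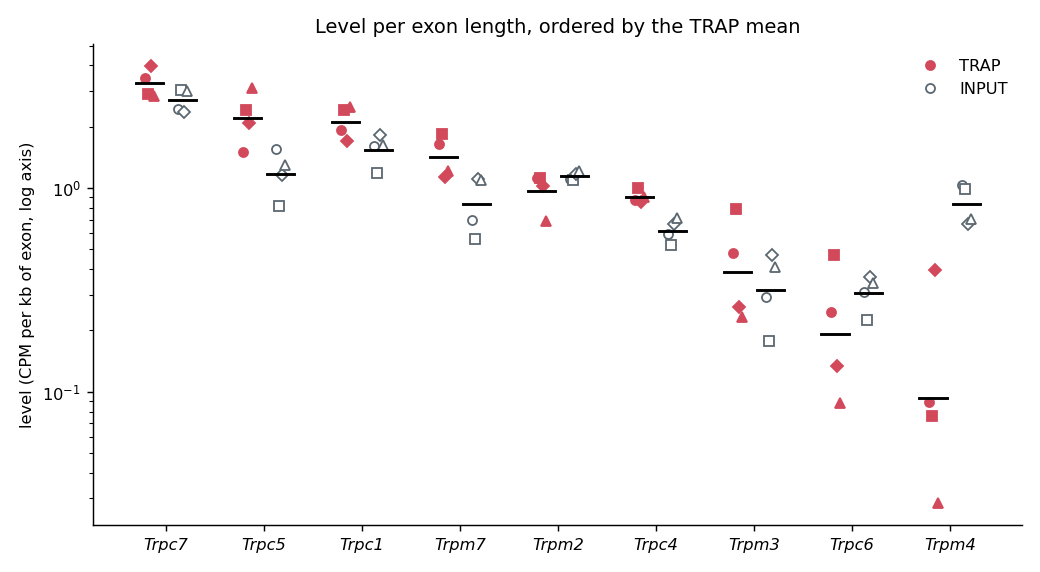
Level of each TRP gene (CPM per kb of exon, log axis) in 4 TRAP libraries (filled) and 4 INPUT libraries (open), ordered by the TRAP mean, with bars at the mean of the log values and symbols by pool as in the plots of levels by pool. The fractions separate widely for Trpm4 alone, from 0.0284 to 0.396 in TRAP against 0.669 to 1.03 in INPUT.

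Of the 19 other TRP channel genes listed, 7 had a row, and none was called with the block, where 15.4% of all genes were called higher and 16.8% lower. Without it the shares over all genes were 23.2% and 24.8%. Trpv2 (0.60 ± 0.19, SE, adjusted p = 0.023) and Mcoln1, the lysosomal mucolipin channel (0.47 ± 0.14, adjusted p = 0.017), were higher in TRAP without the block, with blocked p of 0.096 and 0.16. Trpm6, the other channel kinase, held 1.22 ± 0.28 CPM in TRAP and 1.47 ± 0.32 CPM in INPUT. Pkd2, Pkd2l2 and Pkd2l1, of the polycystin branch, had log2 fold changes of -0.87, -0.18 and -1.79, and passed neither test. No other TRP gene with a row had a mean as low as the -3.16 of Trpm4. Pkd2l1 came nearest, with a blocked SE of 0.95 and pool differences from -3.40 to 1.11. It too was near the floor, at 0.57 CPM in TRAP and 1.27 CPM in INPUT. With this spread Pkd2l1 is not set apart from Trpm4.

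TRPC channels open downstream of Gq and phospholipase C, so these genes were read as a list. Of 14 genes for Gq subunits, phospholipases C and IP3 receptors tested, 2 were called higher and 1 lower without the block, and 2 and 0 with it (median log2 fold change 0.38), shares near or below those over all genes. Both genes called with the block were phospholipase C beta genes, the enzymes that Gq activates. Plcb4 held 223 ± 8.2 CPM in TRAP and 62.2 ± 20 CPM in INPUT (SD, n = 4), a log2 fold change of 1.91 ± 0.24 (SE, limma adjusted p = 8.55e-05 with the block). Plcb1 held 487 ± 30 and 164 ± 45 CPM, a log2 fold change of 1.62 ± 0.24 (adjusted p = 2.43e-04 with the block).

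Of 17 Gq-coupled receptor genes tested, 6 were called higher and 1 lower, and with the block 5 and 1 (median 0.37). The shares over all genes were 23.2% higher and 24.8% lower, and with the block 15.4% and 16.8%. The largest rises were those of Ntsr1, a neurotensin receptor (1.80 ± 0.33), and Adra1a, an alpha-1 adrenergic receptor (1.45 ± 0.33), with blocked adjusted p of 0.0011 and 0.0042. Each was higher in TRAP in 4 of 4 pools. Ntsr2, the neurotensin receptor known from astrocytes, was the one that fell, by 2.38 on the log2 scale (blocked adjusted p = 9.74e-05), from 23.5 ± 4.6 CPM in INPUT to 4.84 ± 2.5 CPM in TRAP (SD, n = 4).

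Of 14 genes that make or break down PIP2 and diacylglycerol, the lipids that gate TRPC channels, 7 were called higher and 1 lower, and with the block 3 and 0 (median 0.58). Among all genes 23.2% were called higher and 24.8% lower, and with the block 15.4% and 16.8%. The 3 genes of the list called with the block were diacylglycerol kinases, which remove diacylglycerol: Dgkb rose by 1.26 ± 0.26, Dgkg by 0.99 ± 0.22 and Dgkz by 0.67 ± 0.21 on the log2 scale (blocked adjusted p = 0.0022, 0.0041 and 0.026). Dgkb held 613 ± 89 CPM in TRAP and 263 ± 81 CPM in INPUT (SD, n = 4).

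Store-operated entry is a process with which Trpc1 has been linked. Of its 11 genes tested, 3 were called higher and 4 lower, and with the block 1 and 1 (median -0.39), fewer by share with the block than over all genes (15.4% and 16.8%). Without the block the shares over all genes were 23.2% and 24.8%. Trpc4ap, named for its binding to Trpc4, rose by 0.81 ± 0.21 (blocked adjusted p = 0.010). Slc9a3r1, the scaffold NHERF1 that binds the tails of Trpc4 and Trpc5, fell by 2.21 on the log2 scale (SE 0.41, blocked adjusted p = 0.0013). It stood at 12.8 CPM in INPUT and 3.19 CPM in TRAP, and so was lower where Trpc4 and Trpc5 were not.

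Around the TRPM channels, 16 genes of ADP-ribose, calmodulin, SUR1 and magnesium handling were tested, of which 3 were called higher and 2 lower, and with the block 2 and 2 (median -0.05). All genes tested had shares of 23.2% and 24.8%, and with the block 15.4% and 16.8%. Parg and Parp1, which release and make the poly-ADP-ribose from which the Trpm2 ligand arises, rose by 1.30 ± 0.29 and 1.16 ± 0.25 (blocked adjusted p = 0.0035 and 0.0030). Cd38, another enzyme that makes ADP-ribose, fell by 1.98 on the log2 scale (blocked adjusted p = 0.0038), and the magnesium transporter gene Slc41a1 fell by 1.23 (0.0038). Abcc8, for the SUR1 subunit said to associate with Trpm4, was higher without the block (0.88 ± 0.21, adjusted p = 0.0061) and not called with it (0.078), its direction opposite to that of Trpm4.

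**Figure D5:**
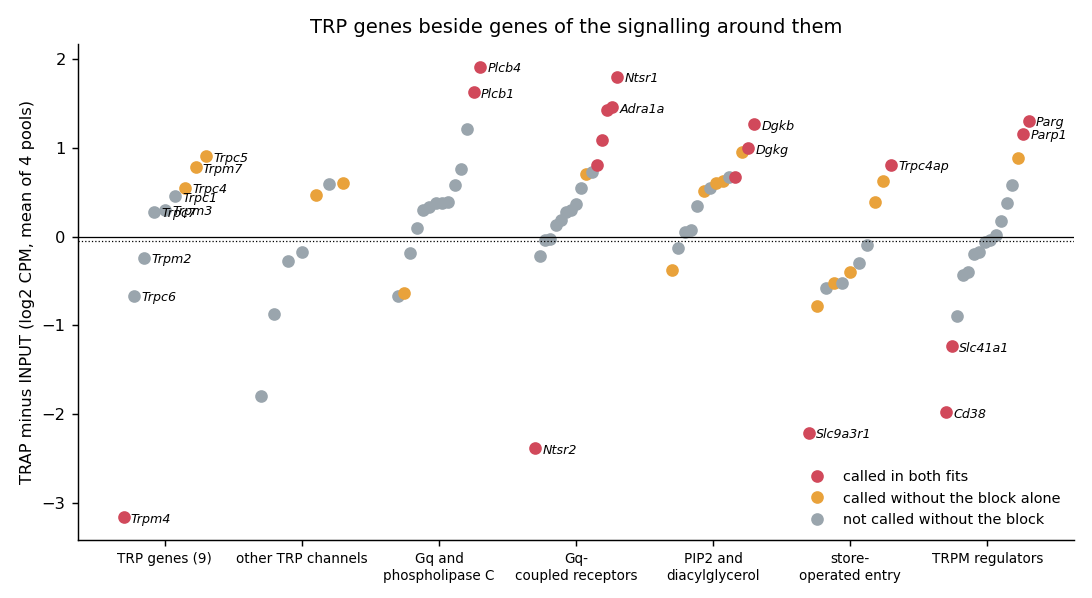
Mean log2 fold change (TRAP minus INPUT over 4 pools) of the 9 TRP genes and of the genes of 6 lists around them, coloured by the fits that called them, with the median of all genes tested as a dotted line. Trpm4 at -3.16 is the lowest point of the plot and Plcb4 at 1.91 the highest.

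Marker genes were read in both fractions to check the labels. Slc17a6 (vGluT2) held 143 CPM in TRAP and 25.9 CPM in INPUT, 2.55 ± 0.24 higher on the log2 scale (limma adjusted p = 7.3e-06 with the block). Of 6 neuronal markers, 6 were called higher without the block and 5 with it (median log2 fold change 1.01), with Snap25 at 1.93 and Tubb3 at 0.95. Apart from Slc17a6 these are general neuronal genes, which neurons without vGluT2 express too. As background, 23.2% of all genes tested were called higher and 24.8% lower without the block, and 15.4% and 16.8% with it. Of the 7 GABAergic and cholinergic markers, 1 was called higher and 3 lower, and with the block 0 and 3 (median -0.05), while Gad2 (-0.05) and Gad1 (0.30) were not called.

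With the block, 7 of 8 striatal markers (median -1.37, Penk -1.70, Ppp1r1b -1.34), 5 of 7 astrocyte markers (median -1.12, Slc1a3 -1.12, and Slc1a2, not called, 0.21) and 5 of 8 oligodendrocyte markers (median -1.21, Mbp -2.23) were called lower, as many as without it. So were 5 of 8 microglial markers (median -2.19, P2ry12 -2.41, C1qb -3.01), 1 of 6 vascular markers (median 0.22, Acta2 -2.38, and Rgs5, not called, -0.26) and 2 of 7 choroid plexus and ependymal markers (median -1.33, Ttr -2.83, Clic6 -1.61). Without the block these were 7, 1 and 4. Of all genes tested, 16.8% were called lower with the block and 24.8% without it. Cspg4 of the oligodendrocyte list and Flt1 of the vascular list were called higher in both fits. The oligodendrocyte markers still summed to 1253 to 2119 CPM in TRAP beside 4360 to 4513 CPM in INPUT, and the microglial markers to 27.5 to 44.4 CPM beside 99.7 to 155 CPM. The TRP values in TRAP include such RNA, and its share in them was not tested.

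For the members with the largest rise and the largest fall, the genes with the most similar profile were sought over all 8 libraries, each gene centred on its own mean. Nearest to Trpc5 were Hps3, Mcm2 and Lemd3, at Euclidean distances of 0.204, 0.207 and 0.247 (log2 CPM). Nearest to Trpm4 were Gm12918, Asgr1 and Lppos, at 0.830, 1.34 and 1.44. Such a distance also grows with the size and spread of the values, and Trpm4 had the larger SD in TRAP (1.57 on the log2 scale, against 0.43 for Trpc5). Distances for Trpm4 and Trpc5 therefore cannot be compared as closeness of profile.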

How the data were processed

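The study's methods state that reads were aligned with STAR 2.5.1a to the primary assembly of Ensembl release 76, that uniquely aligned reads per gene were counted with featureCounts, and that TMM scaling and limma followed. The authors deposited 1 table of log2 CPM values per library, which was used as it stands. Its columns of fold changes and p-values were not used, and 45 repeated entries out of 14398 rows, identical in value, were left out. Whole reads could be recovered in 2 of 4 pools, as 100% of the 7075 and 7330 genes under 20 CPM gave ratios of whole reads (relative tolerance 4e-09). Depth was 12.8 and 13.0 M reads in TRAP and 25.4 and 39.2 M reads in INPUT, and counting errors come from these. Depth of the other pools is unknown, as the values of INPUT VP1.6 and of both VP2.11 libraries were rounded to 3 digits.

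The genes with more than 1 CPM in 3 libraries or more went into limma 3.58.1 (R 4.3.3; eBayes with a trend), with the fraction as the only term and, beside it, the pool as a block. Benjamini-Hochberg adjustment ran over all 14249 genes, and the threshold was 0.05. Pools pair the libraries because both came from 1 homogenate. Deviations from the fraction means correlated at -0.745 to -0.495 within pools and 0.0457 to 0.441 between them. Positions and exon lengths are from GENCODE M21 (GRCm38), to which all 14353 genes matched. The scripts were tested on simulated data. Named were all 9 members, every other TRP gene with a row, up to 3 rises and 3 falls per list called in both fits, and the 2 markers per list with the highest INPUT level. Genes named outside this rule (Abcc8, Slc17a6, Cspg4 and Flt1) were chosen after their values were seen. Of the genes this rule names, 3 are not reported here. The members and lists were chosen with earlier results of these data known.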

Additional observations from a re-analysis of the deposited data

How the results depend on the processing

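Trpm4 was called lower in TRAP in all 23 alternative fits, with log2 fold changes of -3.96 to -2.17. The count of TRP genes called higher, 3 without the block, was less settled. It was 0 with the pool as a replicate block, whether alone, with array weights, without the filter on low values, with a pseudocount of 1 CPM, with either length correction or without a trend in eBayes, and 2 (Trpc5 and Trpm7) with the block after quantile normalization. Without the block it was 3 with array weights, where Trpc7 was called and Trpm7 (adjusted p = 0.062) was not, and 4 after quantile normalization, where Trpc1 was added. Taking out the exon length trend, overall or in each pool, left 1 (Trpc5). Leaving out 1 pool at a time gave 0 to 2 without the block and 0 to 1 with the block: without the block 1 without VP1.6 or VP2.6, 0 without VP2.2 and 2 without VP2.11. The count called lower was 1 in most fits, 2 with either length correction without the block, and 2 with the trend of each pool taken out and the block, Trpm2 being added. Sign changes touched only genes that were never called. Trpc6 was 0.14 after quantile normalization with and without the block. Trpm3 was -0.071 with array weights, -0.032 with array weights and the block, -0.43 with the length trend taken out with and without the block, -0.39 with that of each pool taken out with and without the block, and ran from -0.32 (without VP2.2) to 0.68 (without VP2.6) as pools were left out, with and without the block. The causes were not tested. Over all genes, fits with the block called 1482 to 2822 higher and 1673 to 3191 lower, and fits without it 2398 to 4067 and 2453 to 4578. Of 45 places in the TRAP order under the alternatives, 36 were the same. The no-trend and no-filter fits with the block and the correction by pool were chosen after seeing the data.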
